A study of Mus musculus with 12 samples.

Results

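The mouse *Serpina1* and *Serpina3* genes, which encode secreted protease inhibitors made largely by hepatocytes, were followed across the livers of mice with and without *Yap1*. The members were the rows of the deposited table named *Serpina1a*, *Serpina1b*, *Serpina1c*, *Serpina1d* and *Serpina1e* (5 genes) and *Serpina3f*, *Serpina3g*, *Serpina3k*, *Serpina3m* and *Serpina3n* (5 genes), 10 of 25676 genes in all. Rows were picked by name, and the genes had been chosen with earlier results of these data known. RNA from whole frozen liver of 12 C57BL/6 mice aged 3 to 4 months was sequenced in bulk, 1 library per mouse. The 4 groups of 3 mice were WT males, WT females, and males and females in which *Yap1* was deleted by a Cre recombinase under the *Foxa3* promoter (KO). *Foxa3*-driven Cre acts in the foregut endoderm of the embryo, which gives rise to both hepatocytes and bile duct cells, so the deletion reaches both epithelia. The labels say only WT of the controls and do not say whether these carried floxed *Yap1* or Cre. Values are TPM, a length-adjusted share of each library's transcripts that can be compared between genes.

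A serpin inhibits a protease by offering its exposed reactive loop as bait and trapping the enzyme that cuts it. Alpha1-antitrypsin, the product of 1 gene in humans and of the *Serpina1* copies in the mouse, is an abundant plasma protein. In humans it is the main inhibitor of neutrophil elastase. The mouse copies differ in the reactive loop, and the proteases that each inhibits were not tested. The *Serpina3* genes are the expanded mouse counterparts of the human antichymotrypsin gene; *Serpina3n* is known as an acute-phase gene and *Serpina3g* as a gene of activated haematopoietic cells. YAP1 binds TEAD factors as a transcriptional co-activator and is known to drive growth and biliary fate in liver epithelium.

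All 10 genes lie in 1 cluster on chromosome 12 (GENCODE mouse release 21, build GRCm38). The *Serpina1* genes are on the minus strand, from *Serpina1b* at 103728156 to 103830373, a span that holds *Serpina1d* (103763594 to 103773592), through *Serpina1a* (103853589 to 103863562) and *Serpina1c* (103894926 to 103904887) to *Serpina1e* (103946931 to 103958975). The *Serpina3* genes follow on the plus strand, *Serpina3f* at 104214544 to 104221129, *Serpina3g* at 104236245 to 104241939, *Serpina3k* at 104338486 to 104346144, *Serpina3m* at 104338486 to 104394257 and *Serpina3n* at 104406729 to 104414329. *Serpina3k* and *Serpina3m* share their annotated start, so reads from that stretch could be counted for either.

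The coding sequences of the 5 *Serpina1* genes were 96.3 to 98.5% identical over the 10 pairs, those of *Serpina3f*, *Serpina3k*, *Serpina3m* and *Serpina3n* 81.1 to 92.6% over 6 pairs, and those of a *Serpina1* and a *Serpina3* gene 64.9 to 67.1% over 20 pairs. *Serpina3g* was left out because its annotated coding sequence is short, at 744 bases. The exon stretch that encodes the reactive loop, which decides the protease that is bound, is shown for 69 bases from the conserved hinge, 5′ to 3′ on the coding strand, with capitals at the bases that vary within a family. In the *Serpina1* genes 15 of the 69 bases varied, and *Serpina1e* differed from its copies at 8 to 10 bases.
Serpina1a: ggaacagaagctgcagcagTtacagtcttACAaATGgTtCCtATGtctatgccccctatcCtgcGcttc
Serpina1b: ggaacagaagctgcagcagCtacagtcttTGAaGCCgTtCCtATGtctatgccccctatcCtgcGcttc
Serpina1c: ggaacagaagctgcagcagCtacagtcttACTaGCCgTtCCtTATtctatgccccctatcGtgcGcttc
Serpina1d: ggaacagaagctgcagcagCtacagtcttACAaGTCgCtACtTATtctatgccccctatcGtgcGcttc
Serpina1e: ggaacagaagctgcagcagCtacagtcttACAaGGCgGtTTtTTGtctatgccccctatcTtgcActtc

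In *Serpina3k*, *Serpina3m* and *Serpina3n* 32 of the 69 bases varied. *Serpina3k* and *Serpina3n* differed from each other at 29 of them.
Serpina3k: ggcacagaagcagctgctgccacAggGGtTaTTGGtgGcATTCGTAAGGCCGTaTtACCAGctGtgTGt
Serpina3m: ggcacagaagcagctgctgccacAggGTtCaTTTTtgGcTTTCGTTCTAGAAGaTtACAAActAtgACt
Serpina3n: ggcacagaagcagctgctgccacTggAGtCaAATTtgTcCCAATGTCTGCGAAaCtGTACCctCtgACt

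The *Serpina1* copies also share their promoters. Windows from 250 bases before to 50 after the RefSeq start (GRCm38.p6) were 91.7 to 98.4% identical over 238 to 298 aligned bases in the 10 pairs. The part before the start is shown for the copy that changed least with genotype and the copy that changed most, *Serpina1a* (chr12:103863620-103863869, minus strand) and *Serpina1e* (chr12:103956898-103957147, minus strand). Capitals mark an HNF1-type match. *Serpina3n* (chr12:104406458-104406707, plus strand) is shown beside them, with capitals at C/EBP-type matches.
Serpina1a: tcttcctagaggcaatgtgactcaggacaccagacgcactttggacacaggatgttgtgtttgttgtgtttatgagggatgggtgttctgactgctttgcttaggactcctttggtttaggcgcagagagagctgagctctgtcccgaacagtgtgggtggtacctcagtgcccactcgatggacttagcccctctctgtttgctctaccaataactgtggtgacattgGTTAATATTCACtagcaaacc
Serpina1e: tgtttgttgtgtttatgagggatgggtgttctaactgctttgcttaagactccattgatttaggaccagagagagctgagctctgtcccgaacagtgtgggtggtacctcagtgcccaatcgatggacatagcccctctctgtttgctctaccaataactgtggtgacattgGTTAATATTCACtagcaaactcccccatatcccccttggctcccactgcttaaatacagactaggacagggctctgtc
Serpina3n: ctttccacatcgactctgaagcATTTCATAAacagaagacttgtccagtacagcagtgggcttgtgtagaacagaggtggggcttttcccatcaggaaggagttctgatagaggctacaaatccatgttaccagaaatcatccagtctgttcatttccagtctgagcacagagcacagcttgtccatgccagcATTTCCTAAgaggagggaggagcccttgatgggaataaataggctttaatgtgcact

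The HNF1-type match lay at -21 from the start in *Serpina1a* and at -78 in *Serpina1e*, whose RefSeq start lies further downstream. Both windows were 95.9% identical over 243 aligned bases. That motif, loosened after these promoters had been read, was in all 5 *Serpina1* windows and in 0.148% of 27025 promoters, and in none of the 3 *Serpina3* windows in the table. A STAT-type site (TTCNNNGAA, both strands) was in the windows of *Serpina3f* and *Serpina3g* and in 8.47% of all promoters. A C/EBP-type site (TTNNGNAAT, both strands) was in those of *Serpina1a*, *Serpina3f*, *Serpina3g* and *Serpina3n* and in 11.6% of all. Each match is a run of letters and not a shown binding site.

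The labels and the libraries were checked first. *Yap1* averaged 32.1 ± 4.06 TPM in WT males and 1.40 ± 0.404 in KO males, 26.9 ± 3.60 in WT females and 2.65 ± 0.394 in KO females (SD, n = 3), and Y-linked genes summed to 52.5 to 101 TPM in males and at most 0.122 in females. Low values fell on whole multiples of 1 step per library for 98.1 to 99.2% of genes tested for it (tolerance 0.1 read). On those steps the lowest member, *Serpina3f*, had 24 to 101 reads per library, and *Serpina3m* 3665 to 8982. *Serpina3g* fell on whole steps in 0 libraries, so its reads could not be recovered in this way. Hepatocyte marker genes summed to 78545 to 109393 TPM in WT and 57424 to 82366 in KO. The animal numbers of 2 mice, WT female replicate 3 and KO female replicate 1, lay apart from the run of the others, and so did the library number of WT male replicate 2; neither set is large enough for values within it.

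In WT livers the *Serpina1* genes were abundant and unequal. Together they took 4.07% ± 0.491 of all TPM in males and 2.59% ± 0.445 in females (SD, n = 3), and *Serpina1c* was the gene at rank 20 in mean TPM of the whole table. In WT males the order of group means was *Serpina1c* (13734 TPM), *Serpina1e* (12054), *Serpina1d* (5260), *Serpina1a* (5083) and *Serpina1b* (4529). The ranges of *Serpina1c* and *Serpina1e* overlapped, as did those of the other three with each other. In WT females *Serpina1c* led with 9206 TPM, *Serpina1d*, *Serpina1b* and *Serpina1a* lay at 5599, 5144 and 4862 with overlapping ranges, and *Serpina1e* was last at 1055. Among the *Serpina3* genes, *Serpina3k* held 95.0% of the family's TPM in WT males and 87.2% in WT females. *Serpina3n* (354 TPM) and *Serpina3m* (282) had overlapping ranges in WT males, and *Serpina3g* (3.40) and *Serpina3f* (1.35) were far lower. In WT females *Serpina3m* (390 TPM, 371 to 422) lay above *Serpina3n* (329 TPM, 269 to 364) without overlap, followed by *Serpina3g* (5.28) and *Serpina3f* (2.15).

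**Figure D1:**
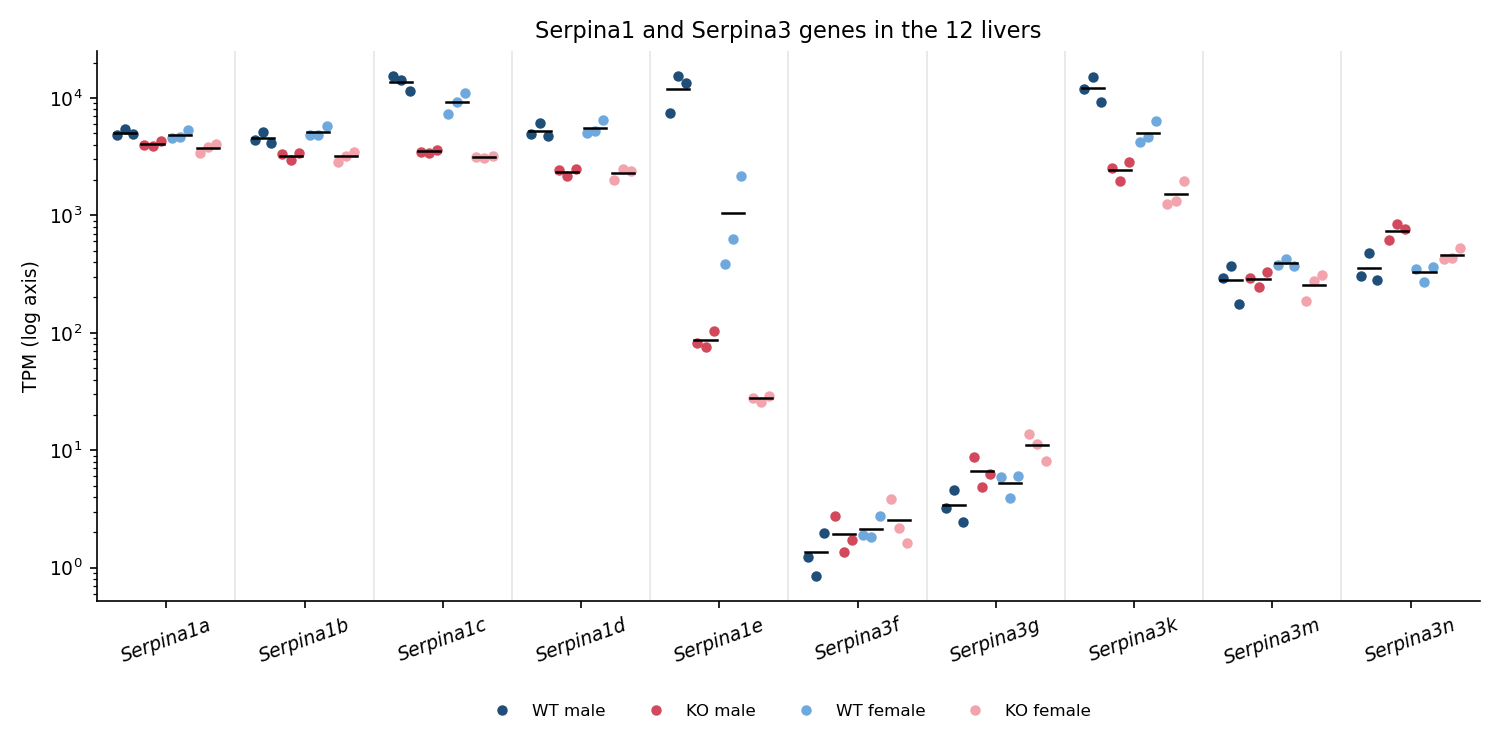
TPM of each member (log axis) in every liver, with points for the livers, a black bar for the group mean and colours for the 4 groups of 3. *Serpina1e* spans 25.8 to 15313 TPM, while *Serpina1a* stays between 3415 and 5439.

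With *Yap1* deleted, all 5 *Serpina1* genes fell and the *Serpina3* genes split. *Serpina1e* fell furthest, then *Serpina1c*, *Serpina1d*, *Serpina1b* and *Serpina1a*. Of the *Serpina3* genes *Serpina3k* fell, *Serpina3n* and *Serpina3g* were higher past the threshold, and *Serpina3m* and *Serpina3f* did not pass it. In limma's moderated test on log2(TPM + 1) with sex as a covariate, 8 of 10 members passed an adjusted p of 0.05 (2 higher, 6 lower), against 54.9% of the 12278 genes tested, of which 50.1% were higher and 4.82% lower. The median log2 fold change was -1.22 over the 5 *Serpina1* genes and 0.23 over the 5 *Serpina3* genes, beside 0.35 over all tested genes. The cause of the common rise of 0.35 was not tested; leaving out the 20 most abundant genes before scaling moved it to 0.31. After a median-of-ratios rescaling, which sets the typical gene to no change, the median of all genes was -0.036, and 39.6% passed (20.9% higher, 18.7% lower). On that scale 7 members passed, all 7 lower, so that *Serpina3n* and *Serpina3g* no longer passed and *Serpina3m* did. Fewer cells of a type and less RNA per cell cannot be told apart in bulk tissue.

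*Serpina1e* read 7385, 15313 and 13465 TPM in WT males and 82.3, 76.0 and 103 in KO males. In females it read 383, 627 and 2155 in WT and 27.9, 25.8 and 29.2 in KO. Every KO liver lay below every WT liver, and WT female replicate 3 stood well above the other WT females. The ratio of group means was 138-fold in males and 38.2-fold in females, or 18.3-fold in females without WT female replicate 3. The log2 fold change over both sexes was -5.93 (SE 0.45, limma adjusted p = 2.31e-07) on deposited TPM and -6.39 (SE 0.48) after rescaling. In KO livers the other copies were still at 2017 to 4304 TPM, and 14.8% of the 100-base words in the *Serpina1e* transcript also occur in another gene. How reads that fit several copies were assigned is not given in the sources used here, and their part in the remaining *Serpina1e* signal was not tested.

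*Serpina1c* read 15481, 14271 and 11450 TPM in WT males and 3443, 3435 and 3644 in KO males. In WT females it read 7295, 9339 and 10983, and in KO females 3136, 3115 and 3210. The KO values lay close together in both sexes, below every WT value, and the log2 fold change was -1.74 (SE 0.14, limma adjusted p = 4.13e-07), or -2.21 after rescaling. *Serpina1c* is also the copy with the largest share of 100-base words found in another gene, 58.5%.

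*Serpina1d* ranged from 4721 to 6534 TPM over the 6 WT livers (median 5131) and from 2017 to 2485 over the 6 KO livers (median 2400). Its log2 fold change was -1.22 (SE 0.12, limma adjusted p = 2.32e-06), close in males (-1.15) and females (-1.28), and -1.68 after rescaling. *Serpina1b* ranged from 4122 to 5747 TPM in WT and from 2851 to 3447 in KO, and its log2 fold change was -0.59 (SE 0.11, limma adjusted p = 0.000632), or -1.06 (SE 0.14, limma adjusted p = 5.39e-05) after rescaling. *Serpina1a*, the most even copy, ranged from 4603 to 5439 TPM in WT and from 3415 to 4304 in KO. It fell by 0.35 on the log2 scale (SE 0.10, limma adjusted p = 0.011), and by 0.81 after rescaling. Groups of these 3 copies did not overlap either. All 5 *Serpina1* genes and *Serpina3k* had every KO value below every WT value, a pattern found in 1.88% of the tested genes.

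Ratios between genes of the same library do not depend on the scaling. The *Serpina1e* to *Serpina1a* ratio of TPM was 1.53 to 2.82 in WT males, 0.0833 to 0.402 in WT females, 0.0196 to 0.0240 in KO males and 0.00670 to 0.00816 in KO females. None of these ranges overlapped another. The *Serpina1c* to *Serpina1a* ratio was 1.58 to 3.20 in the 6 WT livers and 0.791 to 0.918 in the 6 KO livers, and that of *Serpina1d* 0.950 to 1.22 and 0.564 to 0.646. The ratio of *Serpina1b* to *Serpina1a* overlapped in males, at 0.829 to 0.936 in WT and 0.759 to 0.851 in KO, and was apart in females, at 1.05 to 1.07 in WT and 0.835 to 0.850 in KO. Relative to *Serpina1a*, the other 4 copies were thus lower in KO without overlap in each sex, except *Serpina1b* in males. The direction follows from the denominator, since *Serpina1a* was the copy that fell least. In the *Serpina1a* transcript 49.9% of the 100-base words also occur in another gene. The part of shared reads in these ratios was not tested. *Serpina1a* held 30.6% and 30.3% of *Serpina1* TPM in KO males and females, against 12.6% and 19.0% in WT. *Serpina1e* held 0.657% in KO males and 0.223% in KO females, without overlap between the sexes, against 29.3% and 3.76% (1.73 to 7.00%) in WT.

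**Figure D2:**
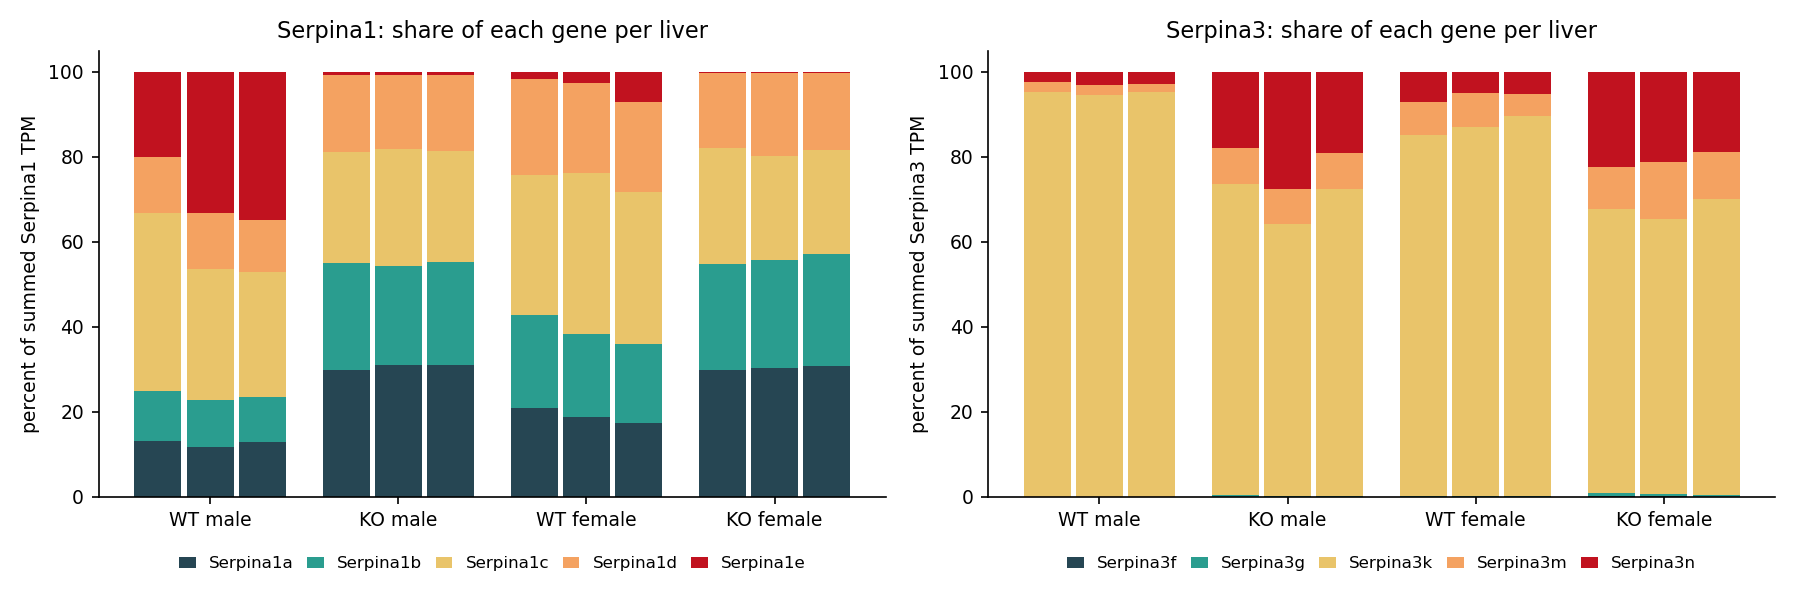
Share of each gene in the summed TPM of its family (percent, 0 to 100), 1 bar per liver, *Serpina1* on the left and *Serpina3* on the right. The *Serpina1e* share shrinks from 29.3% in WT males to 0.657% in KO males, and *Serpina3k* drops from 95.0% to 69.9% of its family.

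*Serpina3k*, the abundant liver member of its family, read 11886, 15099 and 9277 TPM in WT males and 2538, 1952 and 2875 in KO males. In females it read 4192, 4628 and 6431 in WT and 1260, 1326 and 1962 in KO. No KO value reached a WT value, the nearest being a KO male at 2875 and a WT female at 4192 TPM. Its log2 fold change was -2.02 (SE 0.19, limma adjusted p = 1.53e-06), or -2.49 after rescaling, between those of *Serpina1c* and *Serpina1e*.

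*Serpina3n* moved the other way on deposited TPM. It read 303, 479 and 281 TPM in WT males and 616, 842 and 762 in KO males, and 353, 269 and 364 in WT females and 423, 434 and 530 in KO females. The groups were apart within each sex, but WT male replicate 2 (479 TPM) lay above 2 of the KO females. The log2 fold change over both sexes was 0.79 (SE 0.17, limma adjusted p = 0.00135), and after rescaling it was 0.33 (SE 0.18, limma adjusted p = 0.161). In an alternative added after the data were seen, rescaling without WT male replicate 2, it was 0.44 (limma adjusted p = 0.0477). Against *Serpina1a* in the same liver the *Serpina3n* ratio was 0.0565 to 0.0881 in WT and 0.113 to 0.217 in KO, with no overlap, a ratio whose denominator was itself lower in KO.

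*Serpina3g* stood low throughout, at 3.22, 4.54 and 2.44 TPM in WT males, 8.77, 4.85 and 6.29 in KO males, 5.92, 3.91 and 6.03 in WT females and 13.7, 11.4 and 8.03 in KO females. KO exceeded WT within each sex without overlap, and KO males overlapped WT females. The log2 fold change was 0.86 (SE 0.18, limma adjusted p = 0.00109) and after rescaling 0.47 (SE 0.19, limma adjusted p = 0.0726), or 0.59 (limma adjusted p = 0.0194) with WT male replicate 2 also left out. Markers of leukocytes that could carry *Serpina3g* are given beside it. Macrophage markers (8 of 8 in the table) summed to 61.2 to 197 TPM in WT and 313 to 641 in KO, and neutrophil markers (9 genes) to 0.294 to 21.8 and 13.5 to 48.4. T cell markers summed to 1.23 to 3.97 TPM in WT and 1.42 to 4.46 in KO, with *Trac* at 0 in every library, and B cell markers to 0.925 to 5.63 and 1.70 to 4.11. Their part in the *Serpina3g* values was not tested.

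*Serpina3m* read 294, 374 and 176 TPM in WT males, 293, 245 and 330 in KO males, 378, 422 and 371 in WT females and 186, 277 and 309 in KO females. Groups overlapped in males and were apart in females. The log2 fold change was -0.27 (SE 0.20, limma adjusted p = 0.273), and it passed after rescaling (-0.73, limma adjusted p = 0.0157) and without WT male replicate 3 (-0.44, limma adjusted p = 0.0298), the lowest WT value. *Serpina3f*, the least abundant member, ranged from 0.854 to 2.73 TPM in WT and from 1.36 to 3.84 in KO, and its log2 fold change of 0.23 had an SE of 0.18 (limma adjusted p = 0.300) and turned to -0.065 after rescaling.

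**Figure D3:**
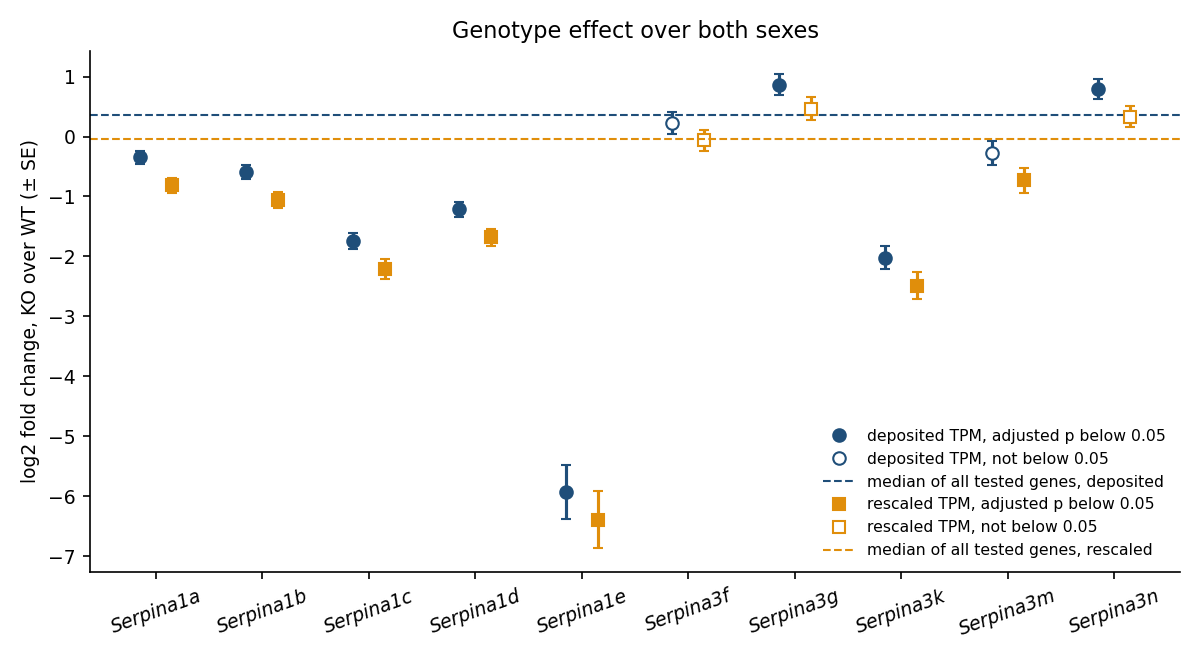
log2 fold change of KO over WT for each member, with SE, on deposited TPM (circles) and after median-of-ratios rescaling (squares), filled where the limma adjusted p is below 0.05. Dashed lines mark the median of all tested genes, 0.35 and -0.036. The 5 *Serpina1* genes and *Serpina3k* lie below 0 on both scales, and *Serpina3n* and *Serpina3g* are filled on deposited TPM only.

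The question of the contrast between the families was whether *Serpina1* and *Serpina3* transcripts changed in step. Summed over 5 genes, *Serpina1* went from 40661 ± 4913 to 13220 ± 691 TPM in males and from 25866 ± 4445 to 12425 ± 871 in females (SD, n = 3). Summed *Serpina3* went from 12728 ± 3117 to 3492 ± 465 in males and from 5810 ± 1199 to 2249 ± 493 in females. The log2 ratio of both sums was 1.70 ± 0.255 in WT males and 1.93 ± 0.117 in KO males, 2.16 ± 0.057 in WT females and 2.49 ± 0.228 in KO females. KO minus WT was 0.23 in males, with overlapping groups, and 0.33 in females, where every KO value (2.22 to 2.63) was above every WT value (2.10 to 2.21). Both sums were thus lower in KO, and *Serpina3k* makes up most of its family. The *Serpina3* sum fell by the larger factor, with the ratio apart in females and overlapping in males.

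Without *Serpina3k* the picture turned. The other 4 *Serpina3* genes summed to 641 ± 202 TPM in WT males and 1038 ± 102 in KO males, and to 726 ± 26.0 and 733 ± 111 in females. The log2 ratio of *Serpina1* to this sum was 6.03 ± 0.328 in WT males and 3.68 ± 0.167 in KO males, 5.14 ± 0.233 in WT females and 4.09 ± 0.126 in KO females, with no overlap in either sex. The difference was -2.35 in males and -1.05 in females. Within the *Serpina3* family *Serpina3n* held 2.77% of TPM in WT males, 21.5% in KO males, 5.76% in WT females and 20.8% in KO females. Log2 fold changes over both sexes ran from -5.93 to -0.35 within *Serpina1* and from -2.02 to 0.86 within *Serpina3*. The low ends were *Serpina1e* and *Serpina3k*, and the next lowest were *Serpina1c* at -1.74 and *Serpina3m* at -0.27.

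**Figure D4:**
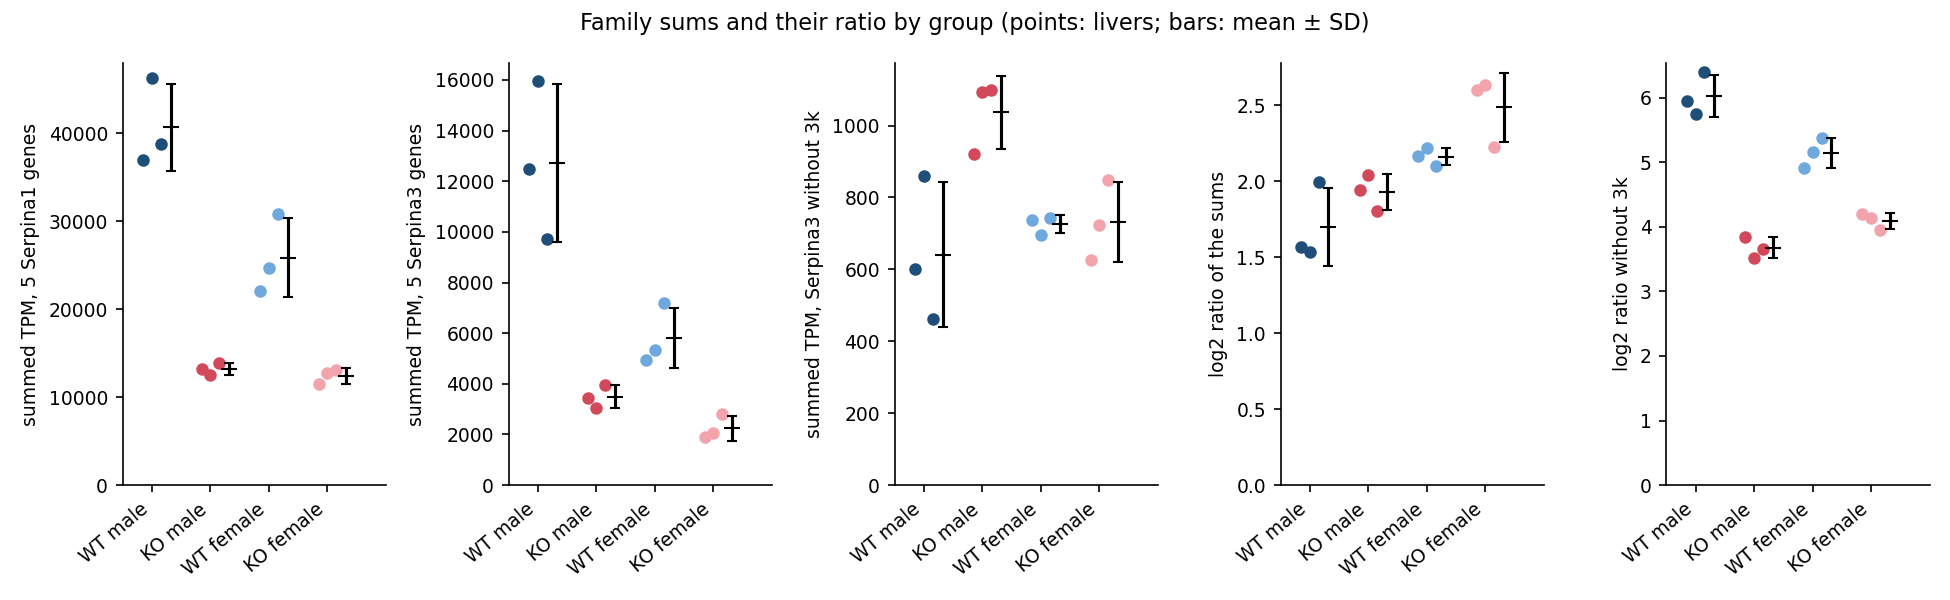
Summed TPM of the 5 *Serpina1* genes, of the 5 *Serpina3* genes and of the *Serpina3* genes without *Serpina3k*, and the log2 ratios of *Serpina1* to each *Serpina3* sum, by group; points are livers and bars the mean ± SD of 3. In males the log2 ratio of the full sums moves from 1.70 to 1.93, and without *Serpina3k* it drops from 6.03 to 3.68. In females KO minus WT is 0.33 for the full sums and -1.05 without *Serpina3k*.

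Within males 7 members passed the threshold (2 higher, 5 lower), against 46.1% of all tested genes (43.3% higher, 2.81% lower). Within females 6 passed (1 higher, 5 lower), against 33.8% (29.1% higher, 4.68% lower). After rescaling 6 members passed in males, all 6 lower, against 24.1% of tested genes (13.9% higher, 10.2% lower), and 7 in females, all 7 lower, against 26.1% (15.2% higher, 10.9% lower). *Serpina1a* missed the threshold in both sexes (limma adjusted p = 0.0726 in males and 0.0640 in females) and passed in both after either rescaling or with the filter raised to a mean of 5 TPM. The call of *Serpina1b* in males (-0.49, limma adjusted p = 0.0201) was lost without WT male replicate 2 (0.0702), without KO male replicate 2 (0.0680) or with no filter on low values (0.0584). *Serpina3n* had log2 fold changes of 1.09 in males (limma adjusted p = 0.00138; 0.160 after rescaling) and 0.50 in females (limma adjusted p = 0.0879; 0.0344 without WT male replicate 2). The calls of *Serpina3g* in males and females were lost after rescaling (limma adjusted p = 0.443 and 0.122). On deposited TPM its call was also lost in males without WT male replicate 1 (limma adjusted p = 0.0565), WT male replicate 3 (0.0792), KO male replicate 1 (0.0891) or KO male replicate 3 (0.0519), and in females without WT female replicate 2 (0.0657) or KO female replicate 1 (0.0581). In females *Serpina3m* (-0.63, limma adjusted p = 0.0738) passed after rescaling (-0.98, 0.0271) and on deposited TPM without WT male replicate 2 (0.0439) or WT male replicate 3 (0.0246). Every KO value lay below every WT value for 6 members in males (3.42% of tested genes) and 7 in females (7.88%), and above for 2 members, *Serpina3n* and *Serpina3g*, in each sex (50.8% and 43.5%). Over both sexes no member had every KO value above every WT value, a pattern of 28.7% of tested genes.

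*Serpina1e* and *Serpina3k* were higher in WT males than in WT females. *Serpina1e* was 11.4-fold higher by group means (log2 difference 3.84, SE 0.47, limma adjusted p = 0.000294), or 23.9-fold without WT female replicate 3 (4.55, limma adjusted p = 1.93e-06), and *Serpina3k* 2.38-fold (1.25, SE 0.25, limma adjusted p = 0.0114). These were the 2 of 10 members that passed, both higher in males, against 5.74% of tested genes in either direction and 1.14% higher in males. After rescaling the same 2 members passed, against 4.38% and 2.11%. The number of all tested genes past the threshold, 705 (140 higher and 565 lower in males), was 538 after rescaling (259 higher, 279 lower) and depended on single WT mice. It was 397, 290 and 1696 without WT male replicates 1, 2 and 3, and 308, 302 and 446 without WT female replicates 1, 2 and 3. *Serpina1c* was 1.49-fold higher (0.59, SE 0.18, limma adjusted p = 0.0716) and passed without WT male replicate 3 (0.0303) or with the filter raised to a mean of 5 TPM (0.0494). The *Serpina3k* call was lost without WT male replicate 2 (0.0540), WT female replicate 1 (0.0590) or WT female replicate 2 (0.0541). All 3 genes had every WT male above every WT female, a pattern of 5.99% of tested genes. The other 7 members overlapped between WT males and WT females.

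In KO livers 0 of 10 members passed between the sexes, where 0.0814% of tested genes did, and 4 members had an unadjusted p under 0.05, where 5.33% of tested genes did. *Serpina1e* was still 3.16-fold higher in KO males than KO females by group means (log2 difference 1.61, SE 0.47, limma adjusted p = 0.744). The KO males (76.0 to 103 TPM) and KO females (25.8 to 29.2 TPM) did not overlap. *Serpina1c* and *Serpina3n* also had every KO male above every KO female, a pattern of 4.41% of tested genes, and *Serpina3k* differed by 0.71 (SE 0.25, limma adjusted p = 0.841). The interaction, the male minus the female genotype effect, passed for 0 of 10 members and 0.912% of tested genes, with 1 member at an unadjusted p under 0.05, where 8.85% of tested genes were, so that 1 of 10 is near the background. That member was *Serpina1e*, whose log2 fold change was -7.04 in males and -4.81 in females (difference -2.23, SE 0.67, limma adjusted p = 0.266). Without WT female replicate 3, the female with the highest level, the difference was -2.94 (limma adjusted p = 0.00253). The interaction was -0.43 (SE 0.25) for *Serpina1c* and -0.54 (SE 0.35) for *Serpina3k*.

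The authors' deposited table gives log2 fold changes of its own for KO over WT. In the authors' deposited table *Serpina1e* is at -7.99, *Serpina3k* at -3.08, *Serpina1c* at -2.50, *Serpina1d* at -1.83, *Serpina1b* at -1.16, *Serpina3m* at -0.97 and *Serpina1a* at -0.96, each with an FDR p listed as 0. In the authors' deposited table *Serpina3g* is at 0.70 (FDR p 0.09), *Serpina3f* at 0.35 (0.51) and *Serpina3n* at 0.05 (0.93). The value for *Serpina3n* is below both fold changes computed here and nearer the rescaled one.

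The genes around these families were taken from lists, to be read against all tested genes, of which 50.1% were higher and 4.82% lower in KO on deposited TPM, and 20.9% and 18.7% after rescaling. Of the other clade A serpins, 5 were tested: 2 were higher and 2 lower. *Serpina7*, which encodes thyroxine-binding globulin, rose by 3.48 on the log2 scale (SE 0.19), from 13.3 to 149 TPM, and *Serpina10*, an inhibitor of coagulation factor Xa, from 103 to 203 TPM (0.95). *Serpina6*, which encodes corticosteroid-binding globulin, fell from 456 to 113 TPM (-1.63), and *Serpina12*, which encodes vaspin, from 18.7 to 3.71 TPM (-1.80). These 4 also passed after rescaling, in the same directions, and *Serpina11* then passed as lower (-0.53, limma adjusted p = 0.000929), which made 2 higher and 3 lower. The 13 tested serpins of other clades had 8 higher and 0 lower, near the share of all tested genes, median 0.50, and after rescaling 5 higher and 2 lower, median 0.038. Among those with the largest change were *Serpinb6b* (1.10 to 45.7 TPM, log2 fold change 4.46), *Serpinb6a* (6.22 to 71.9 TPM, 3.35) and *Serpinh1*, a collagen chaperone (9.45 to 30.2 TPM, 1.60).

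Of 12 proteases that such serpins inhibit or that cleave in the same pathways, 7 were tested and 6 were higher (5 after rescaling), median 1.14, and 0 were lower. *Prtn3*, neutrophil proteinase 3, rose by 3.60 on the log2 scale (SE 0.47), from 0.989 to 28.6 TPM, *Ctsk* from 0.691 to 4.63 (1.65), *Prss8* from 7.18 to 19.7 (1.51) and *Ctsl* from 122 to 267 (1.14). The 29 tested acute-phase and IL-6/STAT3 genes had 22 higher and 1 lower, median 0.97, and after rescaling 12 higher and 4 lower, median 0.51. Among them *Lcn2* went from 29.5 to 1626 TPM (log2 fold change 6.06), *Orm2* from 130 to 3224 (4.99), *Socs3*, the feedback inhibitor of STAT3, from 7.36 to 52.1 (2.68) and *Orm3* from 17.8 to 85.2 (2.58). The *Serpina3n* change of 0.79 was below the median of this list on both scales.

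The growth hormone and STAT5 list, whose pathway sets sex-dependent expression in mouse liver, had 14 tested genes, 3 higher and 5 lower, median -0.29, and 0 higher and 5 lower after rescaling, median -0.67. *Igfals* fell from 112 to 36.6 TPM (log2 fold change -1.60), *Igfbp3* from 11.0 to 3.47 (-1.39) and *Ghr*, the growth hormone receptor, from 200 to 95.9 (-1.06). The 10 hepatocyte transcription factors had 3 higher and 0 lower, a smaller share higher than over all tested genes, median 0.13, among the higher *Foxa3* (0.88) and *Hnf4a* (0.33); none of the 3 passed after rescaling, where 3 others were lower. The 15 genes of secretory folding and export, which carry alpha1-antitrypsin through the endoplasmic reticulum, had 5 higher and 0 lower, also a smaller share than over all tested genes, median 0.26, and after rescaling 2 higher and 2 lower, median -0.17. *Edem2* (49.5 to 105 TPM, log2 fold change 1.05) and *Man1b1* (17.4 to 33.9 TPM, 0.92), both of the disposal of misfolded glycoproteins, passed on both scales, and *Calr* (0.64) and *Surf4* (0.47) on deposited TPM only. The 17 interferon and NF-kB genes had 7 higher, again a smaller share than over all tested genes, and 2 lower, median 0.17, and after rescaling 5 and 5, median -0.22. The 4 with the largest change were *Tnfaip3* (2.44), *Relb* (2.20), *Nfkb2* (1.97) and *Irf8* (1.36).

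**Figure D5:**
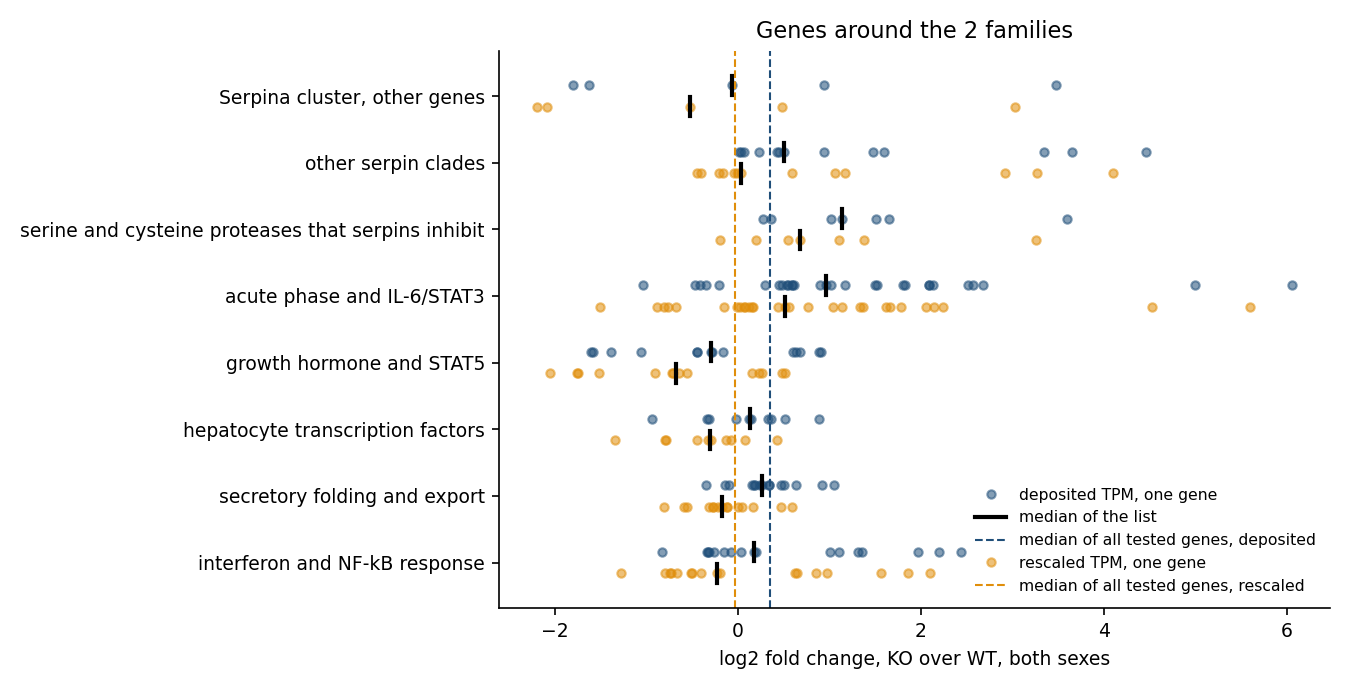
log2 fold change of KO over WT for each tested gene of 8 lists (rows), on deposited TPM and after rescaling, with black ticks for list medians and dashed lines for the medians of all tested genes (0.35 and -0.036). The acute-phase list has its median at 0.97 and 0.51, and the growth hormone list at -0.29 and -0.67.

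The genes whose pattern over the 12 livers lay closest to a member were found by the root mean square difference of log2(TPM + 1), each gene centred on its own mean. For *Serpina1e* they were *Hsd3b5* (0.70), a steroid dehydrogenase gene, *Mup2* (0.78), a major urinary protein gene, and *Slco1a1* (0.99), a hepatocyte uptake transporter gene, against a spread of *Serpina1e* about its mean of 3.36. *Hsd3b5* read 305 TPM in WT males, 15.8 in WT females, 0.442 in KO males and 0.281 in KO females on average. For *Serpina3k* they were *Sdr9c7* (0.41), *Ces3a* (0.42) and *Slc22a30* (0.47), against a spread of 1.16. For *Serpina3n* they were *Prg4* (0.21), *C4bp* (0.23), which encodes a complement inhibitor, and *Cfb* (0.23), complement factor B, against 0.52. *Cfb* averaged 815 TPM in WT and 1416 in KO. For *Serpina3g* they were *Scimp* (0.19), *Rcn1* (0.20) and *Ackr2* (0.21), against 0.59. Their direction with genotype follows from this choice.

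Markers of other cell types are given beside these results. Stellate or fibroblast markers summed to 55.3 to 159 TPM in WT and 147 to 365 in KO, apart within each sex and overlapping over both. Endothelial markers summed to 36.8 to 57.9 TPM in WT, within the KO range of 21.1 to 85.0. The sum of the cholangiocyte markers did not overlap, at 27.7 to 58.5 TPM in WT and 252 to 713 in KO, most of it *Spp1*, while *Krt7* and *Krt19* averaged 0.229 and 1.38 TPM in WT and 0.255 and 1.24 in KO. The summed hepatocyte markers (5 of 6 matched) overlapped between genotypes over both sexes. In males they also overlapped, at 78545 to 92963 TPM in WT and 57424 to 80467 in KO. In females they were apart, at 104629 to 109393 TPM in WT and 67605 to 82366 in KO. Averages in WT and KO were 7453 and 3537 TPM for *Ttr* and 6587 and 1438 for *Cyp2e1*, both without overlap, and 70629 and 58427 for *Alb*, 9549 and 9799 for *Apoa1* and 1164 and 1341 for *Cps1*, whose groups overlapped. The part of cell composition in the member values was not tested.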

How the data were processed

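Whole-liver RNA of 12 mice was sequenced, 1 library each. The deposited values are TPM, per the file headers, each column summing to 1000000, and depth is known only from steps in low values. The submitters' processing notes name GRCm38 and edgeR without a role. The aligner, the counting of reads shared by near-identical genes and the use of strand are not given in the sources used here. The authors' own log2 fold change and FDR p-value, other columns of the deposited table, were only copied.

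TPM were taken as log2(TPM + 1). Genes averaging 0.5 TPM or more (12278) entered linear models of limma 3.58.1 (R 4.3.3; eBayes with trend; two-sided p-values, Benjamini-Hochberg over all tested genes, threshold 0.05), for genotype with sex as covariate, and for each sex, the interaction and sex within genotype with 1 model of 4 group means, tested on simulated data. Fold changes on this scale understate those of low genes. The ratio of families was not tested. Rescaling divided each library by its median of ratios to the geometric mean. Groups came from sample titles, and p-values measure the spread between mice. All 12 sample columns were matched.

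Named beside the 10 members were *Yap1*, from each list the up to 4 called genes of greatest absolute fold change, and the 3 genes nearest in pattern to 4 members. *Trac*, *Spp1*, *Krt7*, *Krt19*, *Alb*, *Ttr*, *Apoa1*, *Cps1* and *Cyp2e1* are members of marker lists, and *Serpina11* was named after its values were seen. Some genes that this rule named are not reported here. The members and lists were chosen with earlier results of these data known. Coding identity is over ungapped aligned columns of GENCODE mouse release 21 transcripts, promoters are RefSeq (8 of 10 members matched), and loops start at the last GTE hinge codons, found for 8 members.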

Additional observations from a re-analysis of the deposited data

How the results depend on the processing

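The number of members past the threshold in the genotype comparison was 8 on deposited TPM and 7 to 9 under the 20 settings chosen at the outset (pseudocount 0.1, no filter or a mean TPM of at least 5, 2 rescalings, 2 variance settings, a covariate for the 2 animal numbers apart from the others and each mouse left out) and 1 added after the data were seen (rescaling without WT male replicate 2). With each mouse left out in turn, members past the threshold were 0 to 1 for the interaction and 1 to 3 for sex in WT. The ratio of families turned with its definition: KO minus WT was 0.28 over both sexes, 0.23 in males and 0.33 in females from sums, -1.88, -2.19 and -1.57 from mean log2(TPM + 1), and -1.70, -2.35 and -1.05 without *Serpina3k*, which by construction removes most of the *Serpina3* sum. *Serpina3f* changed sign on rescaling, at -0.065 over both sexes, -0.020 in males and -0.11 in females, and at -0.14, -0.16 and -0.11 with WT male replicate 2 also left out; in females it ranged from -0.11 to 0.33 with single mice left out. *Serpina3m* in males, 0.09 as deposited, was -0.48 on rescaling, -0.18 with WT male replicate 2 also left out, and -0.21 to 0.33 with single mice left out. The cause of these sign changes was not tested. All genes past the threshold for genotype numbered 6745, and 4453 with a mean TPM of at least 5, where fewer genes were tested. In males they numbered 5663, and 2959 on rescaling. Single values were followed for every member in the genotype comparisons, and for *Serpina1c*, *Serpina1e* and *Serpina3k* in the interaction and sex comparisons. Of these values under all alternatives, 738 kept direction and side of the threshold, 19 lost a call, 19 gained one and 11 changed sign. *Serpina3f* rests on 24 to 101 reads a library, the lowest range of the members, and near-identical copies limit the *Serpina1* values. No paired analysis was possible because the labels give no replicate numbers.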
